A study of Mus musculus with 6 samples.

Results

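The genes described here are 9 members of the transforming growth factor beta (TGF-beta) pathway, taken by symbol from the 32285 genes of the count matrices: the ligand Tgfb1, the activation genes Itgav, Itgb8 and Lrrc32, the receptors Tgfbr1 and Tgfbr2, the signal transducer Smad3, the inhibitor Smad7 and the induced gene Tgfbi. Their unique molecular identifiers (UMIs, one for each captured RNA molecule) were counted in every marker-gated cell class of all 6 libraries. The cells were viable CD45+ cells lacking the epithelial antigen EpCAM, sorted from mouse colon tumours and profiled on the 10x Genomics platform (3' v3). Both genotypes, Control and SOX17KO (loss of the transcription factor SOX17), were represented by 1 library in each of 3 collections: a pair whose labels name no time, called untimed here, a 1-week pair and a 2-week pair. Tumours of 5 mice were pooled per condition, so that a library is a pool and not an animal. The strain, the age of the mice, the cells that carry the SOX17 loss and what the weeks are counted from are not given in the sources used here.

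TGF-beta 1 is secreted by many immune cells in a latent form, held inactive by its own propeptide. Activation of the ligand is the controlled step. GARP, the product of Lrrc32, holds the latent complex on the surface of regulatory T cells. The integrin alpha-v beta-8, made of the Itgav and Itgb8 products, binds the propeptide and activates the ligand. Active TGF-beta binds the type II receptor Tgfbr2, which recruits and phosphorylates the type I receptor Tgfbr1. The type I receptor then phosphorylates Smad2 and Smad3, and Smad7 blocks that step. In the gut the pathway is known for restraining T cells, for inducing Foxp3 and the epithelial-binding integrin chain Itgae, and for driving matrix genes in fibroblasts. Tgfbi encodes a secreted matrix protein and was named for its induction by TGF-beta.

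The stretches before the transcription start of 4 of the genes are shown for their levels by cell class, given below, and were chosen after those were seen: Itgav was highest in regulatory T cells, Tgfbi in macrophages and monocytes, and the 2 receptors differed in opposite directions between regulatory and other T cells. They come from RefSeq on the GRCm38.p6 build, where 7 of the 9 genes had an entry, and each is printed 5′ to 3′ on the strand of its gene and ends before the first annotated exon. The windows are chr2:83724147-83724396 on the plus strand, chr4:47352972-47353221 on the plus strand, chr9:116175364-116175613 on the minus strand and chr13:56609336-56609522 on the plus strand. Capitals mark matches, on either strand, to a Smad box (CAGAC) or a core of PU.1, a transcription factor of myeloid and B cells (GAGGAA); the forkhead core GTAAACA was also searched.
Itgav: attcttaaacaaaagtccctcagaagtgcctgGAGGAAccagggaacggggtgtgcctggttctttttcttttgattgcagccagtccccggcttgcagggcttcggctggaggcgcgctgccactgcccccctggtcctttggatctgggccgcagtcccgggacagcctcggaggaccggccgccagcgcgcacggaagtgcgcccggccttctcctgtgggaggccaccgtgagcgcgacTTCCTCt
Tgfbr1: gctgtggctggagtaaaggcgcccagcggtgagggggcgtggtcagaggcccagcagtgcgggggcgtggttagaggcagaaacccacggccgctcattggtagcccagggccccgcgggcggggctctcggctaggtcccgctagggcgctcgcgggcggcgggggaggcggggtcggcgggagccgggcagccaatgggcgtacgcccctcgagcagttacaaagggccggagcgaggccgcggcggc
Tgfbr2: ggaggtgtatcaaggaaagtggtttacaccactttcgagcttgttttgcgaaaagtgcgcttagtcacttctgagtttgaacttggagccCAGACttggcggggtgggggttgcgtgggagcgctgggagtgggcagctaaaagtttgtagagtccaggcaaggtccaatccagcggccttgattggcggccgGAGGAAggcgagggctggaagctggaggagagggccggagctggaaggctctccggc
Tgfbi: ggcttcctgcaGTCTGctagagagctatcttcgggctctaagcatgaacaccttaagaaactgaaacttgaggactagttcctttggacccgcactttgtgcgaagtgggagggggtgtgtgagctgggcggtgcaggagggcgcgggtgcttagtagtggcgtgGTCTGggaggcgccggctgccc
The Itgav window held 2 PU.1 cores and no Smad box, the Tgfbr2 window 1 of each, the Tgfbi window of 187 bases 2 Smad boxes, and the Tgfbr1 window none of the 3 motifs. No window held the forkhead core, which is found in 3.17% of all 32851 promoter windows of 250 bases, against 42.2% for the Smad box and 23.3% for the PU.1 core. In windows of 187 bases the Smad box is found in 34.2%. These short motifs are common, and the matches are a description of the letters only.

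The libraries held 18281322 to 52150180 UMIs, and after filtering 2937 to 6871 cells each, 32201 in all, whose median depth was 3043 to 5936 UMIs. Any 2 libraries shared at most 10 cell barcodes. Each cell was assigned to a class by the number of distinct marker genes it expressed, and names rest on mRNA alone. The largest classes were T cells (10095) and monocytes and macrophages (9861), followed by neutrophils (1335), NK cells (780), B cells (688) and fibroblasts (565), whose presence goes against the CD45+ gate. Markers of several lineages were seen in 1899 cells, with a median of 12587 UMIs, and 5004 cells with a median of 1522 UMIs reached no class. Regulatory T cells were T cells with a Foxp3 UMI: 739 (Control) and 55 (SOX17KO) in the untimed libraries, 21 and 27 after 1 week, and 114 and 54 after 2 weeks. At 1 week only 90 Control and 131 SOX17KO T cells were gated. These carried 673 and 404 CPM (a gene's share of all UMIs of a class on the usual depth-scaled unit) of the 7 monocyte and macrophage markers, against 30.1 to 42.7 CPM in the T cells of the other 4 libraries, so that the comparison of T cell classes is also given without the 1-week libraries. Sox17 itself was near the detection limit, with 3 to 20 UMIs per library in both genotypes; since the sort removed the epithelial cells, these counts check neither label. Each genotype and collection is 1 library, and p-values therefore measure the spread between collections or between libraries; the 95% intervals given for single libraries and pairs reflect counting error alone.

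Levels are CPM of a class summed in 1 library, given as mean ± SD over the libraries with at least 20 cells of the class. Both chains of the TGF-beta-activating integrin and the gene of the latent-ligand docking protein were highest in regulatory T cells. Itgav, the alpha-v chain that pairs with several beta chains, had 1590 CPM ± 503 (SD, n = 6) in regulatory T cells, 1053 ± 112 (n = 4) in CD4 T cells and 647 ± 209 (n = 4) in CD8 T cells. T cells with both CD4 and CD8 UMIs had 987 ± 274 (n = 3) and innate lymphoid cells 947 ± 162 (n = 2). Next came T cells with neither a CD4 nor a CD8 UMI, 399 ± 165 (n = 6), gamma-delta T cells, 248 ± 52.3 (n = 5), and fibroblasts, 234 ± 36.1 (n = 5). Macrophages had 171 ± 113 (n = 5), NK cells 153 ± 12.6 (n = 5), B cells 116 ± 21.4 (n = 5) and monocytes 102 ± 16.6 (n = 5). The macrophage mean was raised by the 38 macrophages of the untimed SOX17KO library, while the 1-week and 2-week libraries had 98.7 to 137 CPM. The dendritic cell classes and neutrophils lay between 55.3 and 77.7, and plasmacytoid dendritic cells at 17.5 ± 14.8 (n = 3). The ranges of regulatory and CD4 T cells overlapped (999 to 2174 against 970 to 1214 CPM), as did those of gamma-delta T cells and fibroblasts.

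Itgb8, the beta-8 chain that makes this integrin an activator of TGF-beta, reached high levels in fewer classes. In regulatory T cells it had 275 CPM ± 186 (SD, n = 6), in CD4 T cells 74.0 ± 68.7 (n = 4), in CD8 T cells 26.7 ± 35.4 (n = 4) and in fibroblasts 26.3 ± 4.65 (n = 5). Mature dendritic cells had 14.0 ± 19.1 (n = 6), from 23 UMIs in the 6 libraries together, most of them in SOX17KO. The SOX17KO libraries held 6 (untimed), 3 (1-week) and 12 (2-week) of these UMIs, and their Control partners 1, 1 and 0. The levels were 38.6, 3.80 and 38.7 CPM in SOX17KO and 1.77, 1.11 and 0 CPM in Control. B cells, macrophages, monocytes, NK cells, neutrophils, cDC1 and cDC2 had means of 0.276 to 2.81 CPM, and mast cells and basophils had no Itgb8 UMI. The fibroblast level varied least, from 19.9 to 32.9 CPM, while CD4 T cells ranged from 30.9 to 176 and CD8 T cells from 3.72 to 79.5. With each cell thinned to 1000 UMIs, an Itgb8 UMI was seen in 28.3% of the untimed Control, 21.8% of the untimed SOX17KO, 32.5% of the 2-week Control and 35.2% of the 2-week SOX17KO regulatory T cells. At 1 week it was 0% of 21 and 18.5% of 27 cells. In B cells, taken as a class that should lack the gene, 1 of 205 thinned cells of the untimed Control library had one and none in the other libraries. Before thinning the 4 shares in regulatory T cells were 72.5%, 40.0%, 52.6% and 59.3%, and that of the untimed Control B cells 1.44%, at a median of 6399.5 UMIs per regulatory T cell and 2786.5 per B cell. In each library 95% to 100% of the regulatory T cells with an Itgb8 UMI also had an Itgav UMI. Without an Itgb8 UMI it was 88.7% and 90.9% in the untimed Control and SOX17KO, and 92.6% and 81.8% at 2 weeks. The median depth of the cells without one was lower in each of these libraries, at 5098 against 9723.5 UMIs in the untimed Control.

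Lrrc32, the gene of GARP, had the lowest counts of the 3 activation genes. It had 73.2 CPM ± 55.0 (SD, n = 6) in regulatory T cells and 39.8 ± 15.4 (n = 5) in fibroblasts, and the 2 ranges overlapped (33.1 to 174 against 21.8 to 60.4 CPM). Mature dendritic cells followed with 12.3 ± 10.9 (n = 6), and CD4 T cells had 7.66 ± 9.36 (n = 4). No Lrrc32 UMI was found in gamma-delta T cells, NK cells, neutrophils or mast cells of any library with 20 such cells.

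**Figure D1:**
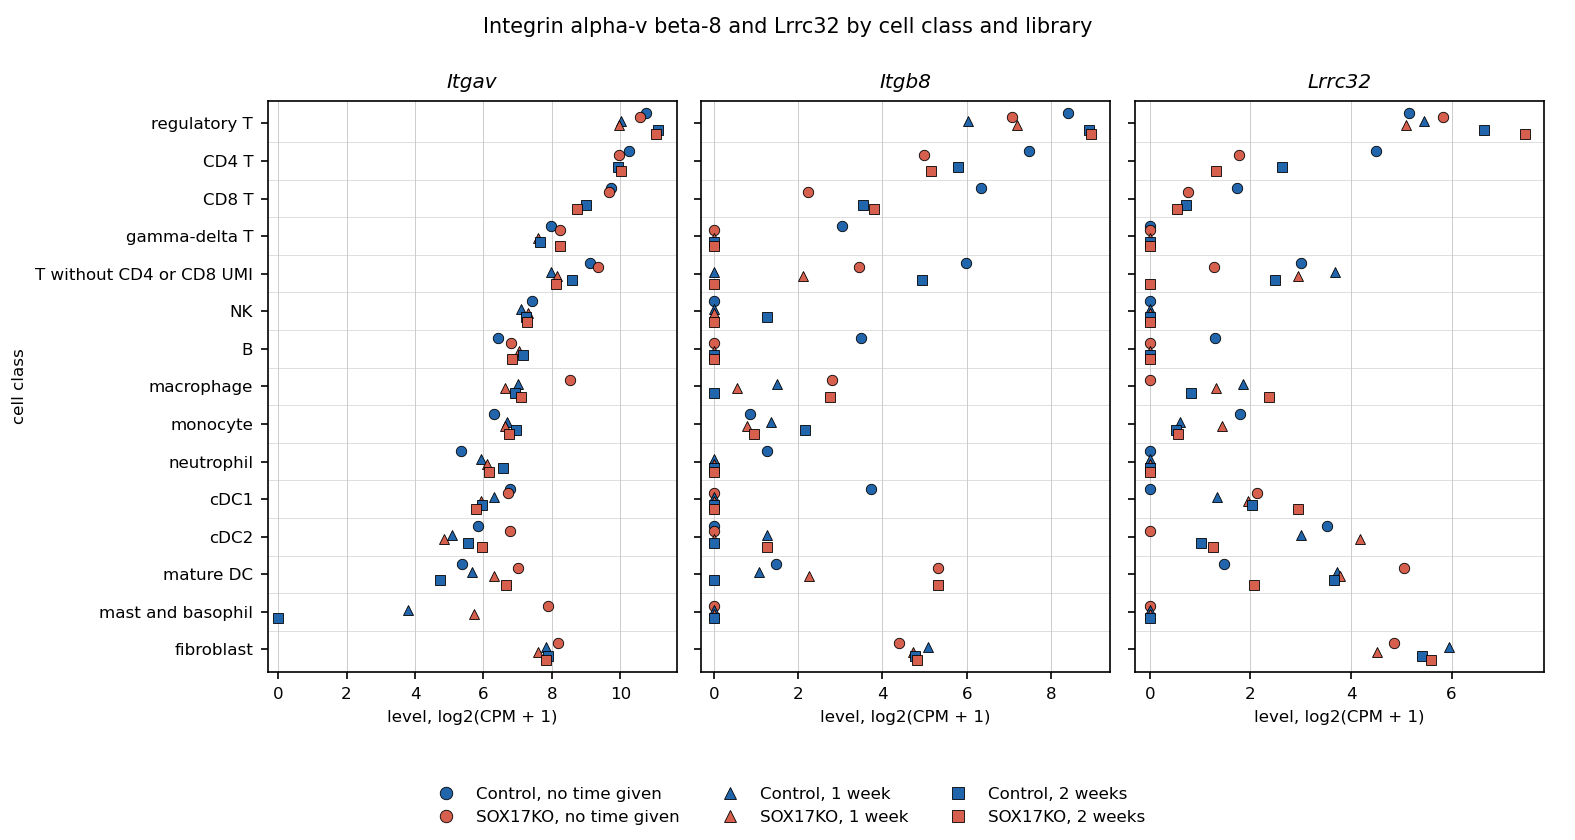
Levels of Itgav, Itgb8 and Lrrc32 as log2(CPM + 1) (x axis) in 15 cell classes (y axis), 1 point per library with at least 20 cells of the class, coloured by genotype and shaped by collection. Regulatory T cells hold the highest means of all 3 genes, and the untimed Control library (blue circles) lies above its SOX17KO partner for Itgb8 in regulatory, CD4 and CD8 T cells.

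Regulatory T cells were compared with Foxp3-negative T cells inside each of the 6 libraries, with the library as a term in edgeR's quasi-likelihood test and Benjamini-Hochberg adjustment over all genes. Of 8 genes tested, 4 were higher in regulatory T cells and 1 lower, against 11.9% of all tested genes called in either direction. Itgb8 had 336 CPM in regulatory and 95.5 in Foxp3-negative T cells of the untimed Control library, and 134 against 7.40 in its SOX17KO partner. The 1-week values were 64.1 against 17.1 in Control and 146 against 1.32 in SOX17KO, and at 2 weeks 475 against 22.8 and 494 against 16.6. Regulatory T cells were thus the higher class in all 6 libraries, with a log2 difference of 3.73 ± 0.43 (SE, adjusted p = 0.000247). Lrrc32 was higher by 4.53 ± 0.64 (adjusted p = 0.000737) and Itgav by 1.66 ± 0.19 (adjusted p = 0.000254).

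The receptors moved in opposite directions in the same comparison. The type I receptor Tgfbr1 was higher in regulatory T cells by 0.96 ± 0.15 (SE, adjusted p = 0.00158), with 71.5 to 159 CPM in the 6 libraries against 41.3 to 62.4 in Foxp3-negative T cells. The type II receptor Tgfbr2 was lower by 0.94 on the log2 scale, a log2 difference of -0.94 ± 0.15 (adjusted p = 0.00158). Its values in regulatory and Foxp3-negative T cells were 259 and 376 CPM for untimed Control, 204 and 353 for untimed SOX17KO, 71.2 and 184 in the 1-week Control, 39.7 and 157 in the 1-week SOX17KO, 126 and 238 in the 2-week Control and 137 and 254 in the 2-week SOX17KO library. Every library thus had less Tgfbr2 in its regulatory T cells. Tgfb1 (0.17 ± 0.14), Smad3 (-0.04 ± 0.14) and Smad7 (0.33 ± 0.14) did not pass. The 5 calls held in each of the 6 fits that left out 1 library, and without the 1-week libraries the log2 differences were 3.67 for Itgb8, 4.72 for Lrrc32, 1.33 for Itgav, 0.84 for Tgfbr1 and -0.84 for Tgfbr2.

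**Figure D2:**
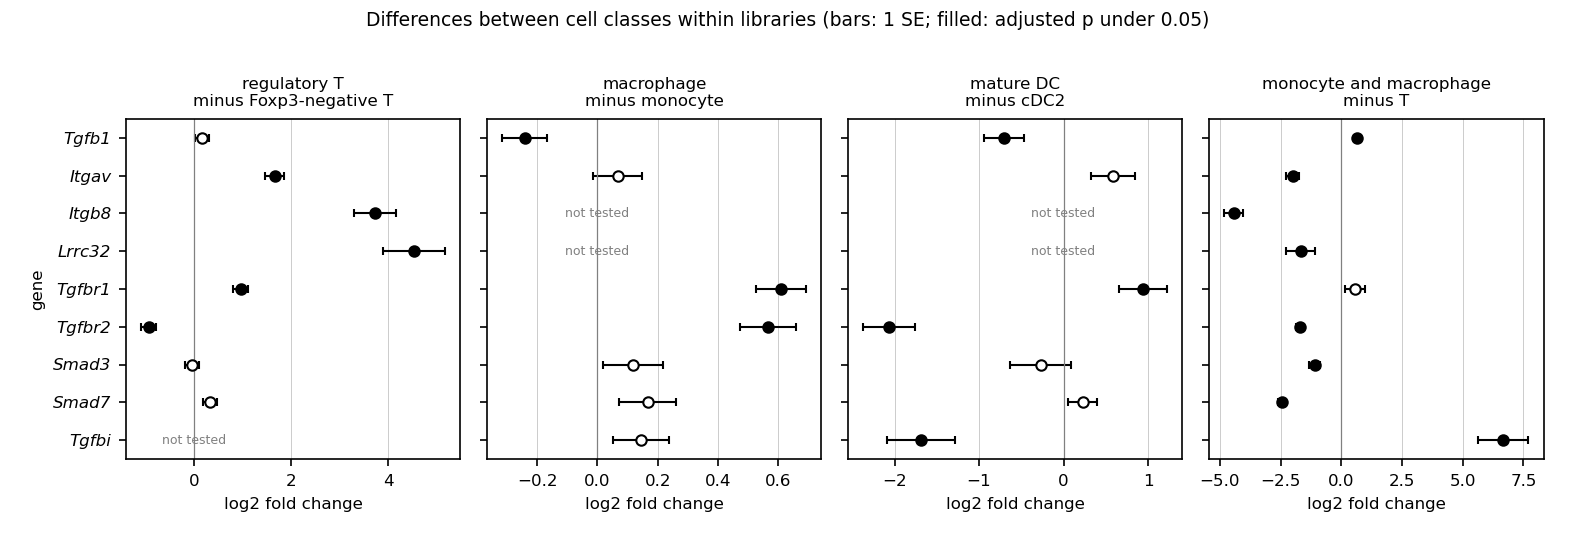
Log2 fold change (x axis) of each gene (y axis) between 2 cell classes of the same libraries, with bars of 1 SE; filled points passed an adjusted p of 0.05 in edgeR, open points did not, and genes removed by the expression filter are marked as not tested. In regulatory T cells Itgav, Itgb8, Lrrc32 and Tgfbr1 lie to the right of 0 and Tgfbr2 to the left.

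Tgfb1, the ligand, was highest in NK cells, 284 CPM ± 79.1 (SD, n = 5), and monocytes, 264 ± 81.5 (n = 5). Both means were raised by the untimed Control library. In the 1-week and 2-week libraries NK cells had 215 to 298 CPM and monocytes 223 to 237 CPM. T cells with both CD4 and CD8 UMIs had 235 ± 39.5 (n = 3). Regulatory T cells followed with 223 ± 40.2 (n = 6), CD4 T cells with 222 ± 29.0 (n = 4), CD8 T cells with 217 ± 41.0 (n = 4) and macrophages with 206 ± 14.1 (n = 5), and neighbours in this order overlapped, while macrophages (182 to 216 CPM) lay below monocytes (223 to 409 CPM). B cells had 138 ± 59.3 (n = 5), cDC2 132 ± 29.4 (n = 6), neutrophils 115 ± 32.4 (n = 5), mature dendritic cells 69.4 ± 22.1 (n = 6) and fibroblasts 43.1 ± 9.53 (n = 5). The fibroblast range, 36.5 to 59.8 CPM, lay below that of every T cell class named here.

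The type I receptor Tgfbr1 had 264 CPM ± 111 (SD, n = 3) in plasmacytoid dendritic cells and 220 ± 211 (n = 4) in mast cells and basophils. The latter mean was raised by the untimed SOX17KO library, whose 24 such cells had 535 CPM, while the other 3 libraries had 90.1 to 139. Macrophages had 142 ± 144 (n = 5), neutrophils 139 ± 27.8 (n = 5), regulatory T cells 109 ± 31.2 (n = 6) and fibroblasts 98.9 ± 13.7 (n = 5), and cDC2 were lowest with 23.1 ± 7.21 (n = 6). The macrophage mean was raised by the untimed SOX17KO library, whose 38 macrophages had 394 CPM, while the other 4 libraries had 50.5 to 132. The type II receptor Tgfbr2 was highest in B cells, 427 CPM ± 64.0 (n = 5), fibroblasts, 329 ± 101 (n = 5), and CD8 T cells, 307 ± 71.0 (n = 4). T cells with both CD4 and CD8 UMIs had 299 ± 74.1 (n = 3), T cells with neither 292 ± 91.7 (n = 6) and CD4 T cells 291 ± 98.3 (n = 4). Neighbours in this order overlapped in range. Regulatory T cells had 139 ± 81.6 (n = 6), monocytes 42.8 ± 14.3 (n = 5), and mature dendritic cells were lowest with 11.1 ± 10.6 (n = 6).

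**Figure D3:**
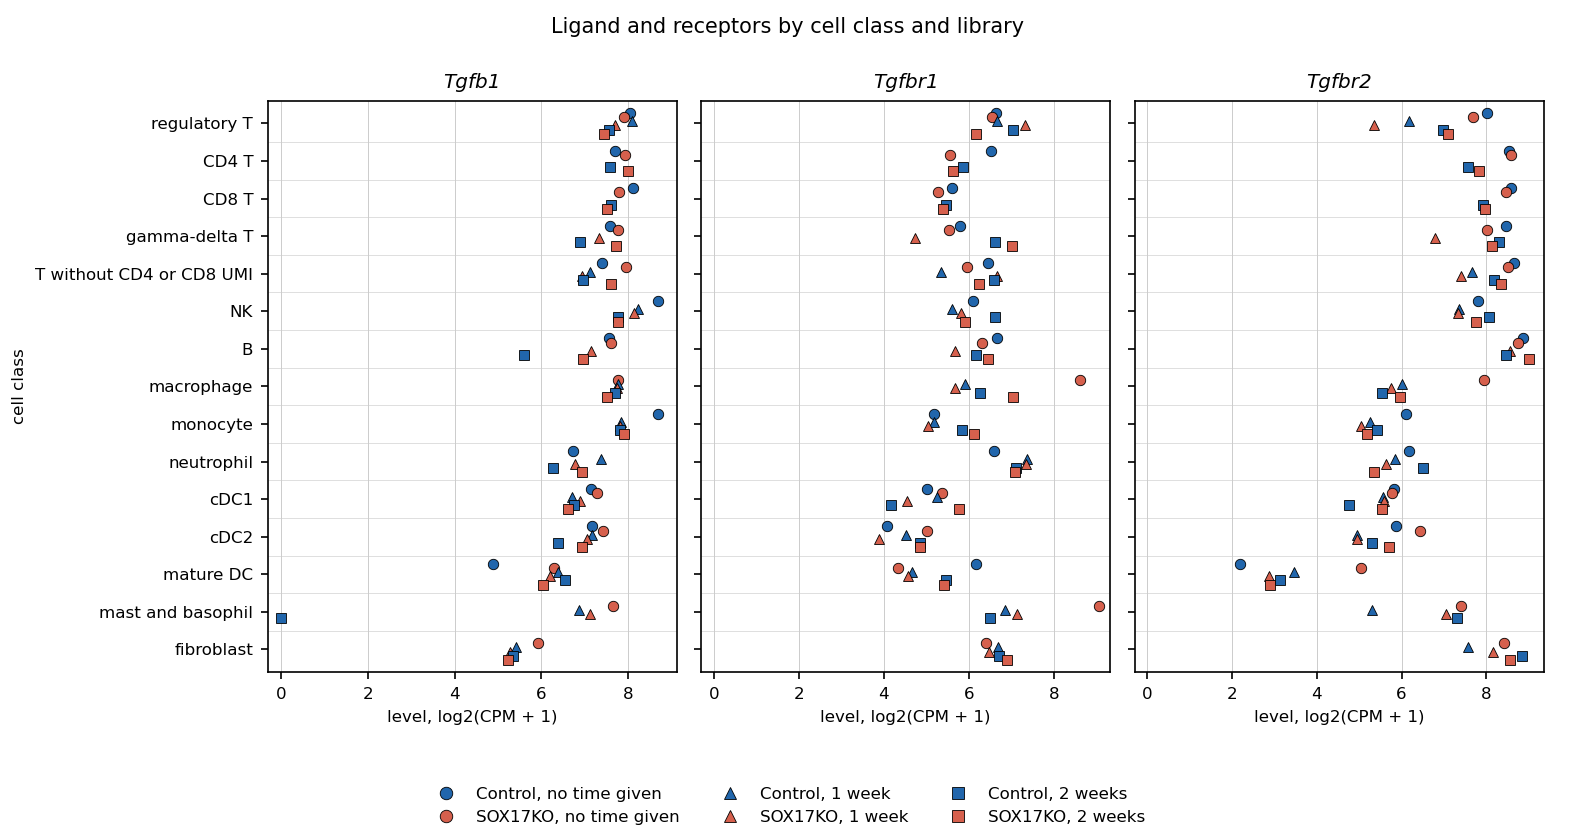
Levels of Tgfb1, Tgfbr1 and Tgfbr2 as log2(CPM + 1) (x axis) in the same 15 cell classes (y axis), 1 point per library with at least 20 cells of the class. Tgfb1 in fibroblasts lies at 36.5 to 59.8 CPM, below monocytes at 223 to 409 CPM, and Tgfbr2 is lowest in mature dendritic cells, at 3.55 to 32.2 CPM.

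Smad3, which carries the receptor signal to the nucleus, had 407 CPM ± 108 (SD, n = 2) in innate lymphoid cells, 272 ± 88 (n = 5) in gamma-delta T cells and 237 ± 86.9 (n = 5) in NK cells, and 147 ± 27.0 (n = 6) in regulatory T cells. Macrophages had 46.7 ± 5.08 (n = 5) and mature dendritic cells 11.3 ± 8.24 (n = 6). Smad7, the feedback inhibitor of the receptors, was highest in regulatory T cells, 334 ± 47.9 (n = 6), CD4 T cells, 325 ± 99.2 (n = 4), and T cells with both CD4 and CD8 UMIs, 320 ± 112 (n = 3), whose ranges overlapped. T cells with neither UMI had 289 ± 74.9 (n = 6), innate lymphoid cells 277 ± 114 (n = 2) and CD8 T cells 277 ± 112 (n = 4). Among classes with at least 3 libraries it was lowest in monocytes, 32.4 ± 9.38 (n = 5). Tgfbi, the induced matrix gene, had 1341 CPM ± 378 (n = 5) in macrophages and 1195 ± 243 (n = 5) in monocytes, with overlapping ranges (807 to 1754 and 956 to 1593 CPM). Lower levels were seen in cDC1, 267 ± 138 (n = 6), neutrophils, 215 ± 77.6 (n = 5), cDC2, 199 ± 36.9 (n = 6), and fibroblasts, 110 ± 86.1 (n = 5). CD4 T cells had 4.11 ± 5.48 (n = 4) and B cells 1.27 ± 2.12 (n = 5).

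**Figure D4:**
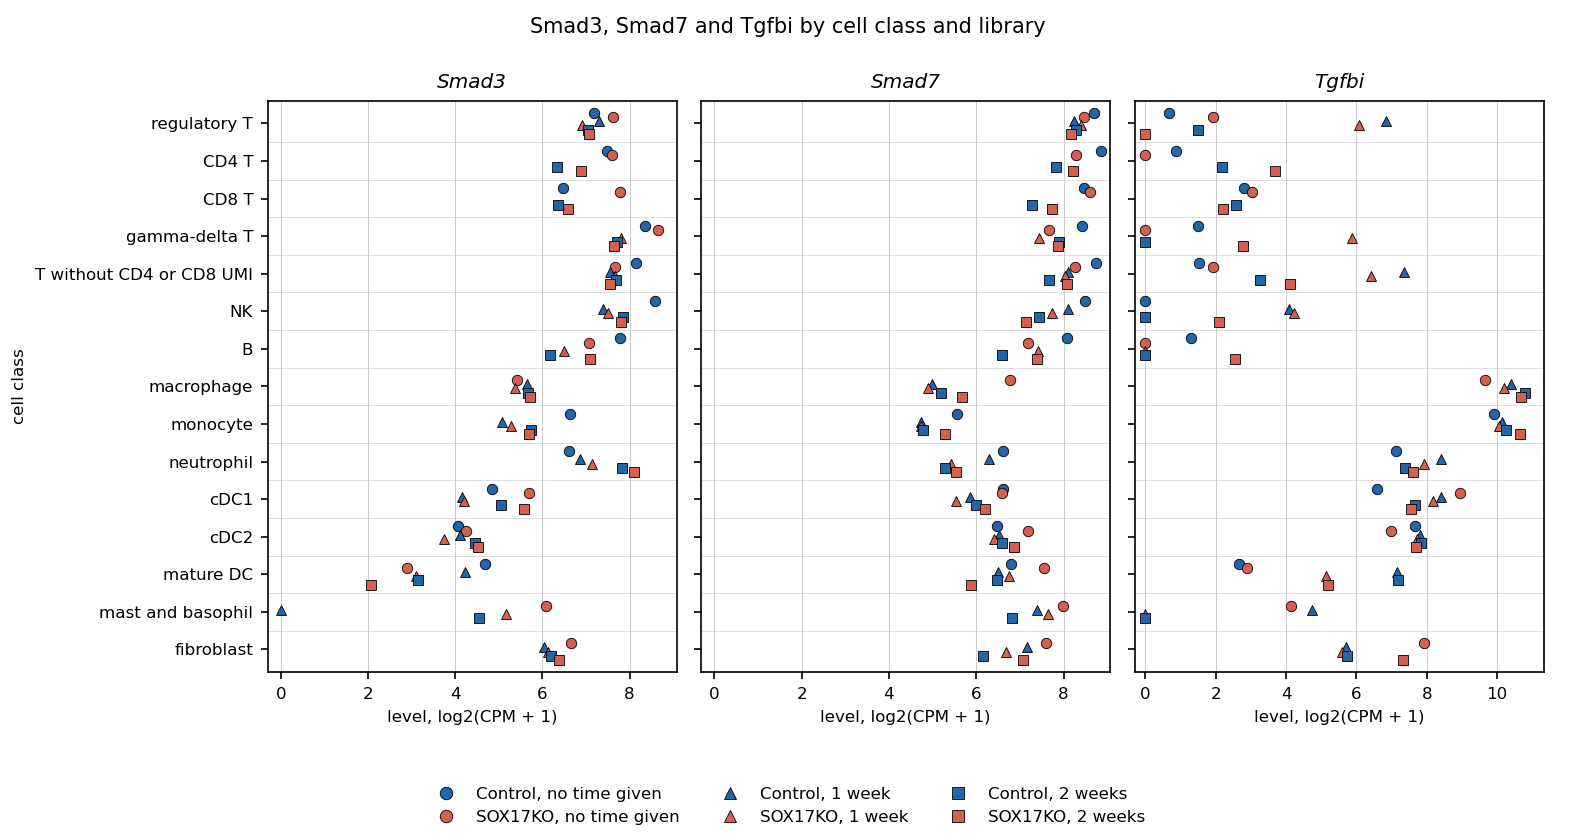
Levels of Smad3, Smad7 and Tgfbi as log2(CPM + 1) (x axis) in the same 15 cell classes (y axis), 1 point per library with at least 20 cells of the class. Smad7 is higher in T cell classes than in monocytes and macrophages and Tgfbi the reverse; regulatory T cells of the 1-week libraries (triangles) have 66.2 and 114 CPM of Tgfbi, against at most 2.79 in the other 4 libraries.

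Between monocytes with macrophages and T cells of the same 6 libraries, 8 of the 9 genes passed, where 64.1% of all tested genes did. Tgfb1 (log2 difference 0.66 ± 0.12, SE, adjusted p = 0.00126) and Tgfbi (6.66 ± 1.04, adjusted p = 0.000674) were higher in monocytes and macrophages. Itgb8 (-4.44 ± 0.38), Smad7 (-2.45 ± 0.14), Itgav (-2.0 ± 0.27), Tgfbr2 (-1.69 ± 0.15) and Smad3 (-1.09 ± 0.22) were lower, with adjusted p from 9.52e-06 to 0.00256. Lrrc32 was lower by 1.66 on the log2 scale (-1.66 ± 0.60, adjusted p = 0.0375), a call that was lost in 5 of the 6 fits that left out 1 library: without Control untimed (adjusted p = 0.0503), Control 1 week (0.0931), SOX17KO 1 week (0.0771), Control 2 weeks (0.100) or SOX17KO 2 weeks (0.133). Tgfbr1 differed by 0.55 ± 0.41 and did not pass.

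Macrophages and monocytes were compared in the 4 libraries of 1 and 2 weeks, where 33.8% of all tested genes passed and 3 of the 7 genes tested here did. Both receptors were higher in macrophages, Tgfbr1 by 0.61 ± 0.08 (SE, adjusted p = 0.000137) and Tgfbr2 by 0.56 ± 0.09 (adjusted p = 0.000571). Tgfbr1 had 58.8, 50.5, 76.1 and 132 CPM in macrophages of the 1-week Control, 1-week SOX17KO, 2-week Control and 2-week SOX17KO libraries, and 35.5, 31.9, 55.9 and 68.5 CPM in their monocytes. Tgfb1 was slightly lower in macrophages (-0.24 ± 0.07, adjusted p = 0.0258), a call lost without the Control 1-week (adjusted p = 0.125) or the SOX17KO 1-week library (0.126). In the 2-week libraries alone Tgfbr2 did not pass either (0.48, adjusted p = 0.150), nor did it with classes from Leiden clusters (0.29, adjusted p = 0.149).

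Mature dendritic cells, which have taken up antigen and express migration genes, were compared with cDC2 in all 6 libraries. Of 7 genes tested 4 passed, where 45.5% of all tested genes did. Tgfbr2 was lower in mature dendritic cells by 2.06 on the log2 scale (-2.06 ± 0.31, SE, adjusted p = 0.000119). It had 3.55, 32.2, 9.98, 6.33, 7.83 and 6.45 CPM in mature dendritic cells of the untimed, 1-week and 2-week libraries, Control before SOX17KO, and 57.7, 85.5, 29.7, 30.1, 38.5 and 51.2 CPM in cDC2. The cDC2 of each library were higher, and only the 25 mature dendritic cells of the untimed SOX17KO library reached into their range. Tgfbi was also lower (-1.68 ± 0.40, adjusted p = 0.00414), as was Tgfb1 (-0.70 ± 0.24, adjusted p = 0.0272), while Tgfbr1 was higher (0.94 ± 0.28, adjusted p = 0.0158). The Tgfbr1 call was lost without the Control untimed library (0.62, adjusted p = 0.0735). The Tgfb1 call was lost without Control untimed (adjusted p = 0.0725), SOX17KO untimed (0.0522), SOX17KO 1 week (0.0575) or SOX17KO 2 weeks (0.0533).

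The study's question, from its title, is how SOX17 bears on immune evasion, and for these genes the comparison is SOX17KO against Control within each class. In 17 fits with collection and genotype as terms, edgeR called 1 of 128 member tests, Itgb8 in CD4 T cells. DESeq2 called 0 and limma-voom 1. An unadjusted p under 0.05 was reached by 10 of the 128 in edgeR. Foxp3-negative T cells, CD4 T cells and mature dendritic cells had 2 each, where 840 of 12186, 1041 of 9546 and 326 of 5707 tested genes reached it. All kept cells, CD8 T cells, NK cells and fibroblasts had 1 each, beside 762 of 15763, 989 of 11841, 510 of 7501 and 664 of 9991 tested genes. Of all genes tested, 0% passed in 12 of the 17 fits, including all kept cells, T cells, regulatory T cells, CD8 T cells and mature dendritic cells, and 1.47% in CD4 T cells. In the other 4 fits, gamma-delta T cells, NK cells, neutrophils and fibroblasts, 0.101%, 0.267%, 0.312% and 0.01% passed. In data simulated on these counts, the same test recovered 52% of 2-fold and 100% of 4-fold changes in T cells, and 49% and 100% in regulatory T cells. The simulated counts had no difference between collections and the same fold in every pair. Their spread between libraries was a fixed setting and was not taken from these data. The recovered shares therefore do not carry over to changes that differ between pairs, to a wider spread, or to genes of low counts.

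Itgb8 differed widely between the 2 untimed libraries. Over all kept cells it had 136 CPM in the untimed Control and 9.18 CPM in its SOX17KO partner, a 14.8-fold difference (95% interval 13.0 to 16.8). At 1 week the values were 5.83 and 4.52 CPM and at 2 weeks 30.3 and 23.0 CPM. Control was the higher library in all 3 pairs, but by very unequal amounts, and the fitted log2 difference of -1.43 ± 0.82 (SE, adjusted p = 0.753) did not pass. In such sums, fewer cells of a type and less RNA per cell cannot be told apart. Regulatory T cells held 50.7% of the Itgb8 UMIs of the untimed Control library, CD8 T cells 10.3% and CD4 T cells 7.38%, while 19.8% lay in cells with markers of several lineages. Regulatory T cells were 739 of 6500 cells in that library and 55 of 6054 in its SOX17KO partner, where they held 19.6% of a much smaller total. At 1 week fibroblasts held 33.2% and 30.8% of the Itgb8 UMIs, and cells with markers of several lineages 38.7% and 45.0%.

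**Figure D5:**
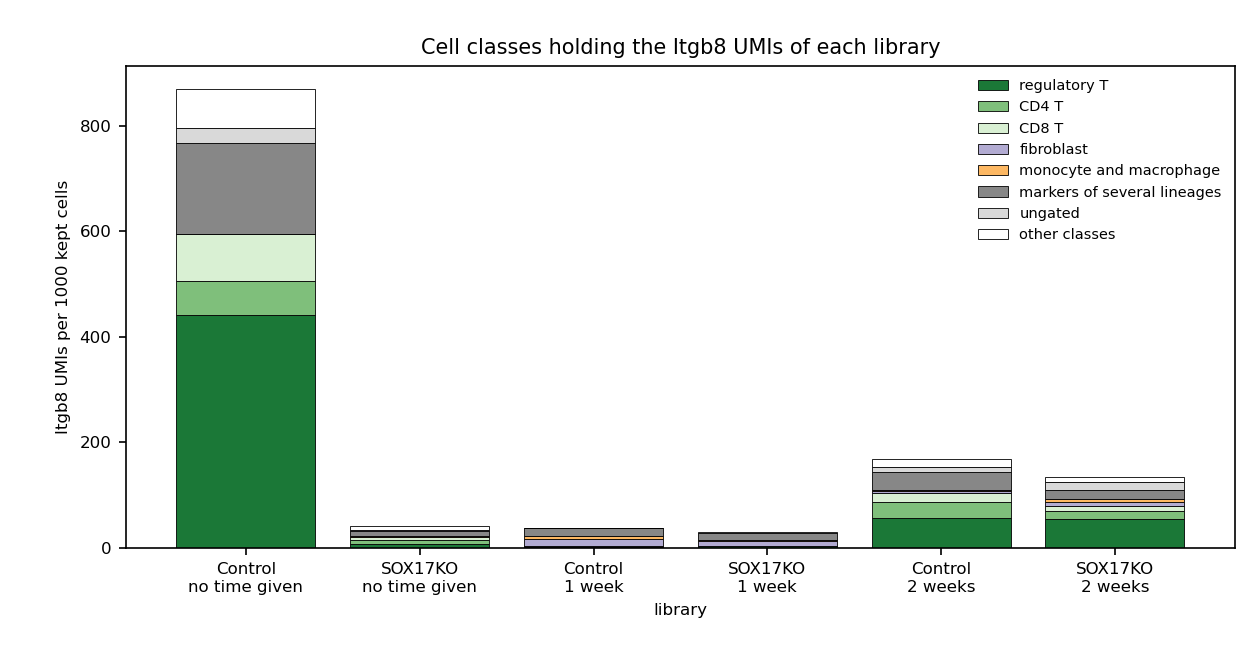
Itgb8 UMIs per 1000 kept cells (y axis) in each library (x axis), divided by the cell class that holds them. The untimed Control library reaches 870 UMIs per 1000 cells, with regulatory T cells as its largest part, and the other 5 libraries lie between 30.7 and 169.

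Within regulatory T cells the level of Itgb8 differed in direction between the pairs. The untimed pair had 336 CPM in Control and 134 in SOX17KO, a 2.51-fold difference (1.89 to 3.41). The 1-week pair had 64.1 and 146 CPM, from 9 and 22 UMIs, with SOX17KO 2.27 times Control (1.00 to 5.6). The 2-week pair had 475 and 494 CPM, a ratio of 1.04 (0.850 to 1.27). The fitted log2 difference was -0.32 ± 0.33 (SE, adjusted p = 0.864). Itgav in regulatory T cells differed by -0.12 ± 0.15 and Lrrc32 by 0.63 ± 0.29, and neither passed. Lrrc32 had 34.8, 55.8, 42.7, 33.1, 98.6 and 174 CPM in the untimed, 1-week and 2-week libraries, Control before SOX17KO; the interval of the 2-week ratio, 1.77 (1.19 to 2.62), was the only one that left out 1.

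In Foxp3-negative T cells Itgb8 had 95.5 and 7.40 CPM among untimed libraries, 17.1 and 1.32 among 1-week libraries, from 8 UMIs and 1, and 22.8 and 16.6 at 2 weeks, Control before SOX17KO. Control was higher in all 3 pairs, but the fit did not pass (-2.18 ± 0.63, SE, adjusted p = 0.693); without the 2-week pair it did (-3.58, adjusted p = 0.000437). Among these, in CD4 T cells Itgb8 had 176 CPM for untimed Control and 30.9 for untimed SOX17KO, and 54.5 and 34.5 CPM at 2 weeks, the only pairs with 20 such cells in both libraries. Control was higher in both pairs, by 5.69-fold (4.07 to 8.15) and 1.58-fold (1.12 to 2.26), and the log2 difference of -1.55 ± 0.31 (SE) passed with an adjusted p of 0.00378. Of the other TGF-beta pathway genes, Furin, whose protease cleaves the TGF-beta precursor, rose in SOX17KO in these cells (1.52 ± 0.23, adjusted p = 0.000183) and Itgae fell (-2.39 ± 0.55, adjusted p = 0.0157). Itgae had 70.4 and 2.44 CPM in the CD4 T cells of the untimed Control and SOX17KO libraries, from 167 and 3 UMIs. At 2 weeks it had 12.34 and 9.001 CPM, from 31 and 12 UMIs, so that the fall lay mainly in the untimed pair. Ikzf2, the gene of the transcription factor Helios that marks most regulatory T cells, moved with Itgb8. It had 1501 and 311 CPM in the CD4 T cells of the untimed Control and SOX17KO libraries, and 529 and 400 CPM at 2 weeks. Other genes high in regulatory T cells did not all do so. Il2ra was higher in SOX17KO in both pairs, at 246 and 315 CPM untimed and 306 and 425 CPM at 2 weeks. Ctla4 had 813 and 507 CPM in the untimed pair, but 894 and 952 CPM at 2 weeks. Among CD4 T cells of the untimed Control library, 92.6% of the 121 with an Itgb8 UMI also had an Ikzf2 UMI, against 37.9% of the 390 without one, at a median of 4698 and 3787 UMIs per cell.

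The Itgb8 call was not made in CD4 T cells that lacked Ikzf2. In CD4 T cells without an Ikzf2 UMI, a split made after the data were seen, Itgb8 had 17.1 CPM in the untimed Control (251 cells) and 30.8 in its SOX17KO partner (253 cells), and 20.7 and 5.02 CPM at 2 weeks. The pairs then pointed in opposite directions, and the log2 difference was -0.23 (adjusted p = 0.962). The call was also lost without the collection term (adjusted p = 0.991), at no more than 5% mitochondrial UMIs (0.318), with classes from Leiden clusters (0.132) and in T cells without a monocyte or macrophage marker UMI (0.187). In CD8 T cells the untimed pair had 79.5 and 3.72 CPM, a 21.4-fold difference (15.4 to 30.5), while at 2 weeks it had 10.6 and 12.9 CPM, and the fit did not pass (adjusted p = 0.618). Ikzf2 had 854 and 157 CPM in the untimed and 265 and 518 CPM in the 2-week CD8 T cells. In CD8 T cells without an Ikzf2 UMI, Itgb8 was still higher in the untimed Control library, 20.0 against 1.83 CPM.

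Itgav in mature dendritic cells was higher in SOX17KO in all 3 pairs: 40.8 and 129 CPM without a time, 49.9 and 78.5 for the 1-week libraries, and 25.4 and 100.0 at 2 weeks. The ratios were 3.15 (1.64 to 6.01), 1.57 (1.05 to 2.36) and 3.93 (2.00 to 8.18), from 13 to 62 UMIs per library, and the groups did not overlap. The fit did not pass (1.32 ± 0.33, SE, adjusted p = 0.635). The 6 T cell markers, whose cells have the most Itgav, had 46.1 and 64.4 CPM in these cells among untimed libraries, 2.22 and 2.53 after 1 week and 11.7 and 3.23 at 2 weeks; their part in the result was not tested. Tgfbi in mature dendritic cells had 142 and 34.2 CPM at 1 week and 145 and 35.5 CPM at 2 weeks, Control before SOX17KO, and 5.32 and 6.44 in the untimed pair (-1.98 ± 0.34, adjusted p = 0.394). Without the untimed pair it passed (-2.03, adjusted p = 3.82e-05). The monocyte and macrophage markers moved with it there, at 571 and 217 CPM at 1 week and 301 and 229 CPM at 2 weeks; their part in the result was not tested.

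Smad3 in CD8 T cells had 88.4 CPM in Control and 219 in SOX17KO of the untimed pair, a ratio of 2.48 (2.27 to 2.71), and 80.7 and 95.5 CPM at 2 weeks, a ratio of 1.18 (1.01 to 1.39). SOX17KO was higher in both pairs, by unequal amounts, and the fit did not pass (0.83 ± 0.33, adjusted p = 0.596). In regulatory T cells of the same libraries Smad3 had 145 and 195 CPM in the untimed and 131 and 134 CPM in the 2-week pair. The log2 difference of Tgfb1 between genotypes was -0.04 ± 0.11 over all kept cells and 0.05 ± 0.15 in Foxp3-negative T cells.

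The labelled times allow a second comparison, 2 weeks against 1 week, with 1 library of each genotype at each time. Over all kept cells, Itgav (1.27 ± 0.15, SE, adjusted p = 0.0233), Smad7 (0.97 ± 0.15, adjusted p = 0.0318) and Tgfbr2 (0.97 ± 0.15, adjusted p = 0.0310) were higher at 2 weeks, where 14.9% of all tested genes passed. Itgav had 133 and 115 CPM at 1 week and 433 and 315 CPM at 2 weeks. All 3 were higher in T cells than in monocytes and macrophages above, and T cells were 1.72% and 1.91% of cells at 1 week and 42.0% and 24.0% at 2 weeks. The part of the T cell share in these calls was not tested. All 3 calls were lost when any 1 of the 4 libraries was left out: without Control 1 week, SOX17KO 1 week, Control 2 weeks or SOX17KO 2 weeks the adjusted p was 0.135 to 0.265 over the 3 genes.

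Regulatory T cells of the 2-week libraries had more of both integrin chains than those of the 1-week libraries. Itgb8 rose by 2.01 ± 0.47 (SE, adjusted p = 0.0380), from 64.1 and 146 CPM to 475 and 494, and Itgav by 0.89 ± 0.18 (adjusted p = 0.0233), from 1033 and 999 CPM to 2174 and 2083, where 5.31% of all tested genes passed. The groups did not overlap for either gene, but the 1-week values come from 21 and 27 cells. The Itgav call was lost when any 1 of these libraries was left out (adjusted p = 0.0566 to 0.241), and the Itgb8 call without Control 2 weeks (0.125) or SOX17KO 2 weeks (0.280) and with limma-voom (2.02, adjusted p = 0.0771). The monocyte and macrophage markers had 933 and 549 CPM in these cells at 1 week and 43.8 and 37.3 CPM at 2 weeks, and their part in the result was not tested. The Itgb8 difference was 1.32 without Control 1 week and 3.02 without SOX17KO 1 week. In Foxp3-negative T cells Itgav rose by 1.51 ± 0.20 (adjusted p = 0.00426; 5.24% of all tested genes), from 209 and 193 CPM to 590.5 and 604; without SOX17KO 1 week (0.0597) or Control 2 weeks (0.0557) it missed the threshold, as it did in cells without an Ikzf2 UMI (0.0681). In cells without a monocyte or macrophage marker UMI it was 1.51 (adjusted p = 0.0214).

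Tgfbi fell from 1 to 2 weeks in T cells (-4.57 ± 0.57, SE, adjusted p = 0.00497; 5.22% of all tested genes), from 207 and 94.6 CPM to 6.12 and 7.66. It also fell in Foxp3-negative T cells (-4.59 ± 0.49, adjusted p = 0.00154) and in regulatory T cells (-6.44 ± 1.34, adjusted p = 0.0241), where 33 UMIs in all were counted and the call was lost without Control 1 week (0.392), Control 2 weeks (0.236) or SOX17KO 2 weeks (0.204). The monocyte and macrophage markers moved with it, at 673 and 404 CPM at 1 week and 30.1 and 42.7 CPM at 2 weeks in T cells. Of the other pathway genes 5 fell in T cells, among them the TGF-beta activator Thbs1 (-5.40 ± 0.53) and Mmp9 (-3.55 ± 0.48). In T cells without a monocyte or macrophage marker UMI, Tgfbi had 2.67 and 3.73 CPM at 1 week, from 1 and 2 UMIs, and 2.36 and 3.0 CPM at 2 weeks, and the log2 difference was -0.21 (adjusted p = 0.954). Regulatory T cells so selected had no Tgfbi UMI in any library.

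In NK cells, where 21.6% of all tested genes passed, Smad7 (-0.81 ± 0.18, adjusted p = 0.000175), Tgfb1 (-0.60 ± 0.18, adjusted p = 0.00521) and Tgfbi (-3.27 ± 0.72, adjusted p = 0.000124) were lower at 2 weeks. Smad7 had 273 and 210 CPM at 1 week and 172 and 141 CPM at 2 weeks, and Tgfb1 298 and 280 against 217 and 215 CPM. Tgfbi was at 15.9 and 17.7 CPM at 1 week against 0 and 3.30, with 31.7 and 37.8 CPM of the monocyte and macrophage markers at 1 week and 12.6 and 19.8 at 2 weeks. Their part in the result was not tested. DESeq2 called neither Smad7 (adjusted p = 0.112) nor Tgfb1 (0.227), and the Tgfb1 call was also lost with 1 more marker required of a cell (-0.38, adjusted p = 0.160) and with Leiden clusters in place of gates (-0.35, 0.318).

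The type I receptor rose with time in both myeloid classes. Tgfbr1 rose by 0.79 ± 0.17 in monocytes (SE, adjusted p = 0.00781; 13% of all tested genes), from 35.5 and 31.9 CPM to 55.9 and 68.5, and by 0.89 ± 0.21 in macrophages (adjusted p = 0.0379; 5.25%), from 58.8 and 50.5 to 76.1 and 132. In neutrophils Smad3 rose by 1.06 ± 0.25 (adjusted p = 0.0231; 10.6%), from 115 and 139 CPM to 227 and 274. DESeq2 called none of these 3 (adjusted p = 0.0910, 0.0987 and 0.241). Without a genotype term the macrophage Tgfbr1 (0.0585) and neutrophil Smad3 (0.0591) calls were lost, the latter also with 1 more marker required (0.0572). In the 5 other fits no gene passed in edgeR: monocytes with macrophages, cDC1, cDC2, mature dendritic cells and fibroblasts, with 0, 1, 1, 0 and 2 at an unadjusted p under 0.05. Of all tested genes, 1539 of 10841, 925 of 7228, 954 of 7792, 840 of 6349 and 2318 of 9991 reached that unadjusted threshold. In these fits 0%, 1.41%, 0%, 0.0158% and 5.09% of all tested genes passed; DESeq2 called 0 in each, and limma-voom 1, Tgfbr2 in fibroblasts.

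The pathway's other genes were taken from a list of 40 ligands, latency proteins, activators, co-receptors, Smads, inhibitors and targets. In regulatory against Foxp3-negative T cells 17 were tested, 2 were higher and 2 lower (11.9% of all tested genes passed), with a median log2 difference of 0.18, against -0.02 over all tested genes and 0.65 over the 8 genes above. Itgae, a target of TGF-beta, was higher by 2.28 ± 0.39 (SE) and Itgb1, another partner of alpha-v, was lower by 0.86 on the log2 scale (-0.86 ± 0.19), as was Furin (-0.71 ± 0.20). In macrophages against monocytes 11 of 28 were higher and 6 lower (median 0.08, against 0.02 over all tested genes, of which 33.8% passed). Pmepa1, a feedback inhibitor induced by TGF-beta, was higher in macrophages by 2.55 ± 0.17, the protease gene Plau by 1.33 ± 0.13, and Zfyve9, which presents Smads to the receptor, was lower (-1.35 ± 0.10). In mature dendritic cells against cDC2 8 of 18 were higher and 4 lower, where 45.5% of all tested genes passed. The ubiquitin ligase gene Smurf1 (2.02 ± 0.20), Itgb1 (1.01 ± 0.12) and the Smad repressor Skil (0.96 ± 0.18) were higher. In monocytes and macrophages against T cells 17 of 32 were higher and 6 lower, where 64.1% of all tested genes passed. Zfyve9 was higher by 6.64 ± 0.45, Itgae was lower (-4.54 ± 0.22), and Nrros, which docks latent TGF-beta on myeloid cells as GARP does on regulatory T cells, was higher by 2.90 ± 0.21.

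From 1 to 2 weeks, in the sum of all kept cells, 1 of 40 tested genes of this list rose and 6 fell, beside 14.9% of all tested genes in either direction. The mix of cells changed too. Monocytes and macrophages were 63.8% and 61.8% of cells at 1 week and 23.2% and 29.7% at 2 weeks, Control before SOX17KO. The part of this change in these calls was not tested, and the calls were not tried with a library left out. The alpha-v partner Itgb3 rose (2.10 ± 0.17, SE), and Id1 (-1.81 ± 0.22), Id3 (-1.38 ± 0.29), Eng (-1.32 ± 0.20), Acvrl1 (-1.29 ± 0.28), Nrros (-1.17 ± 0.21) and Acvr1b (-1.12 ± 0.21) fell; Id1 and Id3 are targets of BMP and TGF-beta signals, and Eng, Acvrl1 and Acvr1b are receptors or co-receptors of the family. In T cells 0 of 31 rose and 5 fell (5.22%): Thbs1 and Mmp9, given above, the protease gene Mmp14 (-3.26 ± 0.48), Nrros (-1.22 ± 0.25) and Acvrl1 (-5.17 ± 1.10). In Foxp3-negative T cells, a subset of these, 1 of 31 rose and 5 fell (5.24%): the co-receptor gene Tgfbr3 rose (2.30 ± 0.54), and Thbs1 (-5.45 ± 0.67), Mmp9 (-4.71 ± 0.63), Mmp14 (-3.62 ± 0.53), Acvrl1 (-4.46 ± 1.05) and the decoy receptor gene Bambi (-2.26 ± 0.53) fell. In regulatory T cells 0 of 17 rose and 2 fell (5.31%), Thbs1 (-3.92 ± 0.74) and Nrros (-1.84 ± 0.38). The monocyte and macrophage markers given above moved with these T cell values, and their part was not tested.

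In NK cells 2 of 15 rose and 2 fell (21.6% of all tested genes): Ldlrad4, an inhibitor of Smad activation, rose (0.94 ± 0.18, SE), as did Smurf1 (0.95 ± 0.33), and the repressor gene Tgif1 (-0.63 ± 0.23) and Bambi (-1.18 ± 0.45) fell. In neutrophils 2 of 15 rose and 0 fell (10.6%), Thbs1 (1.57 ± 0.22) and Smurf2 (1.16 ± 0.29). In cDC1 0 of 18 rose and 1 fell (1.41%), Thbs1 (-4.21 ± 0.72). In monocytes 5 of 27 rose and 0 fell (13%), in macrophages 4 of 29 rose and 1 fell (5.25%), and in fibroblasts 5 of 36 rose and 0 fell (5.09%). Ldlrad4 rose in these 3 classes by 1.40 ± 0.14, 1.15 ± 0.16 and 0.94 ± 0.18, and the alpha-v partner Itgb5 by 0.61 ± 0.17, 0.79 ± 0.17 and 0.89 ± 0.21. Mmp14 rose in monocytes (0.77 ± 0.18) and macrophages (0.99 ± 0.16), Thbs1 (0.82 ± 0.15) and Zfyve9 (0.64 ± 0.15) in monocytes, and Pmepa1 (0.84 ± 0.19) in macrophages, where Mmp9 fell (-4.44 ± 0.61). In fibroblasts the TGF-beta target Ccn2 rose by 1.15 ± 0.21, Pmepa1 by 0.86 ± 0.18 and the protease gene Mmp2 by 0.89 ± 0.20. None of 32 passed in monocytes with macrophages, of 23 in cDC2 and of 16 in mature dendritic cells, where 0%, 0% and 0.0158% of all tested genes did. Between genotypes no gene of the list passed outside CD4 T cells in the 17 edgeR fits.

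For each of the 9 genes, the 3 genes with the most similar profile were found by Pearson's r of log2(CPM + 1) over 16 cell classes, among 12197 genes, as a description with no test. The classes of a library share its depth. Itgb8 was most like Mpp2 (0.93), Ikzf4 (0.93) and Mid2 (0.92), and Itgav most like Agfg1 (0.96), Ctla4 (0.95) and Syt11 (0.94). Ikzf4 and Ctla4 are genes of regulatory T cells. Lrrc32 was closest to Nid2 (0.84), Mgarp (0.81) and Il6st (0.79). Tgfbi was closest to Ifi207 (0.98), Adap2 (0.96) and Slamf8 (0.96), Smad7 to Fam193b (0.97), Dtnb (0.97) and Zer1 (0.95), and Smad3 to D230025D16Rik (0.94), Mat2b (0.92) and Rabif (0.92). Tgfbr2 was closest to Dync2h1 (0.95), Sec62 (0.95) and Foxo4 (0.94), Tgfb1 to Bin2 (0.91), Casp8 (0.90) and Ptpn18 (0.88), and Tgfbr1 to Calm2 (0.80), Myo1d (0.79) and Hbp1 (0.78), the lowest of the leading values.

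In the GRCm38 annotation (GENCODE vM21) all 9 are protein-coding genes. Those the results turn on are Itgb8 at chr12:119158022-119238802 on the minus strand, Itgav at chr2:83724397-83806916 and Lrrc32 at chr7:98489283-98502181, both on the plus strand, and Tgfbr2 at chr9:116084293-116175360 on the minus strand.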

How the data were processed

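The deposited matrices hold raw UMI counts per gene and cell barcode, made by the authors with Cell Ranger on mm10 per the submitters' processing notes (version 6.0.1; the headers of the matrices name 7.0.1). Barcodes with at least 200 genes and at most 10% mitochondrial UMIs were kept. Scrublet's own threshold marked at most 0.105% of barcodes and so did not work; instead, the highest scores were removed, 0.8% of barcodes per 1000. Cells were gated by distinct marker genes, and raw counts were summed per library and class with at least 20 cells. Genes were tested with edgeR 4.0.16 (quasi-likelihood, TMM, filterByExpr; R 4.3.3; limma 3.58.1 and DESeq2 1.42.0 as alternatives), with collection and genotype as terms, or library and class, and Benjamini-Hochberg adjustment over all genes tested (threshold 0.05). The collection number pairs the genotypes and the library pairs the classes by design. Ratios within a pair have exact conditional binomial 95% intervals. Named genes were the 9 members and, of the pathway list, those past the threshold between genotypes or collections and up to 3 per class comparison. The members and lists were chosen with earlier results of these data known. The test was checked on simulated counts, with a mean per gene shared by all libraries, the same fold in each and a fixed spread not taken from the data. In the regulatory T cell comparison with Foxp3-negative T cells it recovered 94% of 2-fold and 100% of 4-fold changes. Alternatives covered normalization, filters, tools, terms, gating and left-out libraries; 2 cell selections, the fits without the 1-week libraries and the collection fits without 1 library were added after the data were seen.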

Additional observations from a re-analysis of the deposited data

Results flagged for a closer look

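In 5 cases with UMIs in every library compared, the ratio of SOX17KO to Control pointed in opposite directions in 2 collections. The level was at least 25% higher in SOX17KO in 1 and at least 25% higher in Control in the other, with both 95% intervals excluding 1. Each pair was 1 library against 1, and none of these differences was tested. Itgb8 in regulatory T cells had a log2 ratio of 1.18 at 1 week and -1.33 in the untimed pair, a gap of 2.51. Smad7 in CD4 T cells had 0.39 at 2 weeks and -0.57 in the untimed pair, a gap of 0.96. In T cells with neither a CD4 nor a CD8 UMI, Smad7 had 0.43 at 2 weeks and -0.48 in the untimed pair, a gap of 0.91. Smad7 in fibroblasts had 0.92 at 2 weeks and -0.48 at 1 week, a gap of 1.41. Tgfbr1 in T cells with neither a CD4 nor a CD8 UMI had 1.35 at 1 week and -0.49 in the untimed pair, a gap of 1.83. Itgb8 in macrophages is not counted, as its 2-week pair had no log2 ratio. It had 19 and 7 UMIs at 1 week and 0 and 11 at 2 weeks, Control before SOX17KO, and both intervals excluded 1. Only separately gated classes were screened, not sums of classes: over all T cells together, Lrrc32 had a ratio of 0.129 (0.0884 to 0.184) in the untimed pair and 2.05 (1.44 to 2.91) at 2 weeks, and Tgfbi 2.38 (1.69 to 3.38) and, at 1 week, 0.457 (0.343 to 0.606). Tgfbr2 in fibroblasts, at 1.5 (1.32 to 1.70) at 1 week and, at 2 weeks, 0.811 (0.679 to 0.970), missed this minimum.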

How the results depend on the processing

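Over all alternatives 378 counts of called genes stayed within 1.5 times the value reported and 51 did not. Of the values of single genes, 451 kept direction and call, 68 lost the call and 0 reversed. The cause was not tested. The counts that follow are of the 9 genes described here only. The share of all tested genes called in the same alternative fits is not given, so these counts cannot be weighed against it. For the genotype difference, 0 genes were called in CD4 T cells with DESeq2, without the collection term (no replicate block), at no more than 5% mitochondrial UMIs, with Leiden clusters, without cells with a monocyte or macrophage marker UMI and without cells with an Ikzf2 UMI, and 2 with 1 more marker required. Without the expression filter 1 was called in T cells, CD8 T cells and monocytes with macrophages, 2 in Foxp3-negative T cells and CD4 T cells and 3 in mature dendritic cells. Leaving out 1 collection gave 0 to 1 in Foxp3-negative T cells and mature dendritic cells. For 2 weeks against 1 week, the fit without the genotype term called 7 genes in all kept cells, 3 in T cells, 1 in monocytes with macrophages and in cDC1, and 0 in neutrophils and macrophages. DESeq2 called 2 in T cells and 0 in NK cells, neutrophils, monocytes and macrophages, and limma-voom 1 in fibroblasts. Without the filter there were 2 in T cells and 1 in cDC2 and fibroblasts. Without doublet removal there were 2 in T cells, neutrophils and monocytes and 1 in fibroblasts. With 1 more marker there was 1 in NK cells and 0 in neutrophils. Leiden clusters gave 0 in T cells and 1 in Foxp3-negative T cells and NK cells. Cells without a monocyte or macrophage marker UMI gave 0 in T cells and 1 in Foxp3-negative T cells, and those without an Ikzf2 UMI gave 0 in Foxp3-negative T cells. Leaving out 1 library gave 0 to 0 in all kept cells, 1 to 2 in Foxp3-negative T cells and 0 to 2 in regulatory T cells. Macrophages against monocytes had 1 without the library term (no replicate block) and 1 without the 1-week libraries; there, without the library term, Tgfbr1 (0.65, adjusted p = 0.220) was lost, as was Tgfbr2 in regulatory T cells (-0.86, adjusted p = 0.212). Leaving out 1 library gave 2 to 3, 3 to 5, 7 to 8 and 5 to 6 called genes for macrophages against monocytes, mature dendritic cells against cDC2, monocytes and macrophages against T cells, and regulatory against Foxp3-negative T cells. Fits of 4 libraries without 1 pair have no residual degrees of freedom and were not run, and no Leiden cluster was named cDC1 or cDC2. Depth limits the rare classes: the 1-week regulatory T cells numbered 21 and 27.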
